A study of Mus musculus with 7 samples.

Results

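The 8 genes described here encode the TSC complex (Tsc1, Tsc2 and Tbc1d7), its substrate Rheb, the sestrins (Sesn1, Sesn2 and Sesn3) and Ddit4, which lie upstream of mTOR complex 1 (mTORC1). They were taken by gene symbol from the array table, where each of the 8 had 1 transcript cluster, out of 19565 named clusters and 22198 in all. A transcript cluster is the array's unit for 1 gene. Gene expression was compared between β-cells that lacked Raptor (KO, 4 arrays; RIP-Cre, Raptor-/-, Rosa26 GFP) and β-cells of littermates that kept it (WT, 3 arrays; RIP-Cre, Raptor+/+, Rosa26 GFP). The mice were 2 weeks old. Their background is labelled C57BL/6, while the methods describe the RIP-Cre line as of mixed background. The green cells were sorted by flow cytometry. The KO and WT mice thus both carried Cre under the rat insulin promoter and the Rosa26 reporter, which marks cells by past Cre activity and not by their present state. The RNA on each array was pooled from several animals of 1 genotype. In such bulk RNA, fewer cells of a type and less RNA per cell cannot be told apart.

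mTORC1 is a kinase complex that couples growth factors, amino acids and energy to protein synthesis and growth, and Raptor is the subunit that defines it. The small GTPase Rheb activates mTORC1 when it is bound to GTP. The TSC complex is the GTPase-activating protein that switches Rheb off, and kinases such as AKT and AMPK act on TSC2. Sestrins hold back the amino acid arm of the pathway by binding GATOR2, and DDIT4 (also called REDD1) is a stress-induced protein that inhibits mTORC1 through the TSC complex. In β-cells, mTORC1 is known for its role in cell size, proliferation and insulin production. Deletion of Raptor removes a step downstream of all 8 genes, and the question here was whether their transcripts differed between KO and WT β-cells.

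For none of the 8 genes did the difference between KO and WT β-cells pass the test against the spread between arrays. The KO mean was lower for 7 genes and higher for 1, Rheb. Differences, given as KO minus WT in log2 signal, ran between -1.20 for Tsc1 and 0.32 for Rheb. Their median was -0.27, beside 0.00 over all transcript clusters, of which 49.6% were lower in KO. By limma, 0 of the 8 genes had an unadjusted p below 0.05, against 2.18% of all transcript clusters (484, of which 225 were higher and 259 lower), and the methods' t-test also gave 0 of 8. After adjustment over all transcript clusters 0 of 8 genes passed 0.05, as did 0% of all, and every adjusted p was 1. The KO and WT values overlapped for all 8 genes, where 3.93% of all transcript clusters had groups without overlap. For 6 of the 8 genes the 95% interval of the difference included a change of 1 log2 unit, and these arrays could therefore not tell such a change from none.

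**Figure D1:**
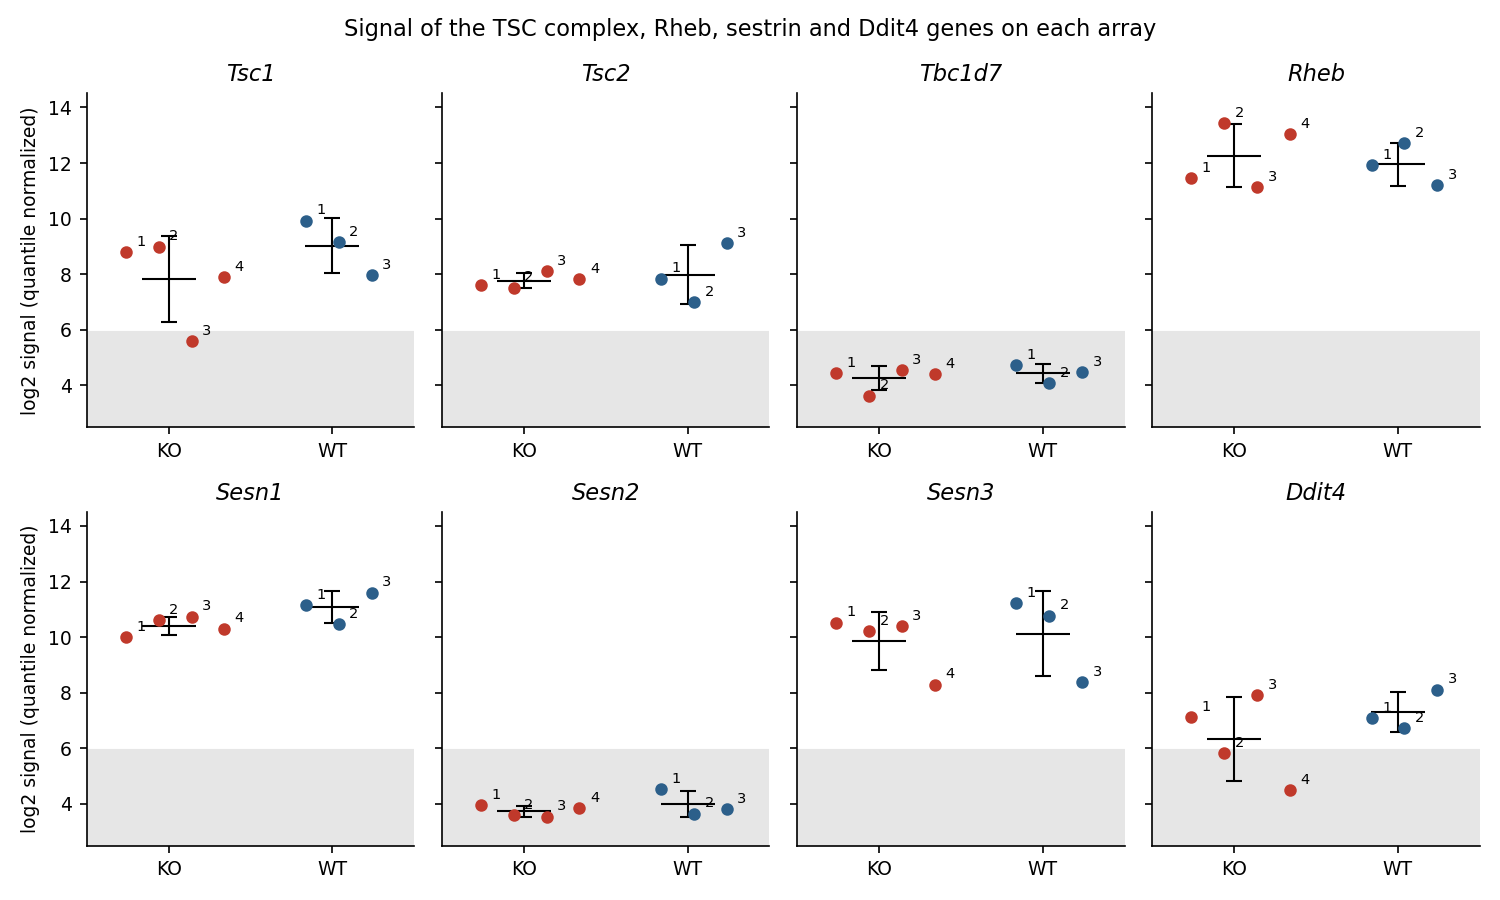
Signal of each of the 8 genes on each array, in log2 units after quantile normalization. Red points are the 4 KO arrays, blue points the 3 WT arrays, digits the replicate number, bars mean and SD, and the grey band reaches up to 5.92, the 95th percentile of the mean signal of 1410 olfactory and vomeronasal receptor genes. KO and WT values overlapped for every gene, and Tbc1d7 and Sesn2 lay inside the band on every array.

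Properties of the arrays bear on what follows. β-cell markers were bright, with a mean log2 signal over 11 measured markers between 13.95 and 15.08 on KO arrays and between 14.90 and 15.23 on WT arrays, although the β-cell transcription factor gene Mafa was between 3.54 and 3.80 on KO arrays and between 3.44 and 3.60 on WT arrays. Ins2, which encodes insulin, and Gcg, which encodes glucagon, both stood at the top of the scale, 19.91, on all 7 arrays. Of the other measured α-cell genes, Ttr was between 18.11 and 19.41 and Slc38a5 between 7.51 and 11.09. The transcription factor genes Irx1 and Irx2 were between 3.27 and 4.11 and between 5.52 and 6.42. All 6 listed genes of δ, PP and ε islet cells had higher KO means, with a median difference of 0.85. KO and WT values overlapped for each, and the smallest unadjusted limma p was 0.0797, for Sst. The part of these cells in the KO minus WT differences was not tested. Transcripts of exocrine acinar cells were present in unequal amounts. The mean over 27 of 30 listed acinar genes, called the acinar score, was 9.21, 12.36, 9.09 and 15.08 on KO replicates 1 to 4 and 10.93, 14.16 and 7.17 on WT replicates 1 to 3. The highest signal of that list was that of the amylase gene Amy2a4, between 16.39 and 19.91 on KO arrays and between 11.31 and 19.91 on WT arrays, while among the acinar transcription factor genes Ptf1a and Rbpjl were between 3.10 and 5.64 on all arrays and Bhlha15 was between 7.82 and 9.37. KO replicates 3 and 4 and WT replicate 3 stood apart, with median correlations to the other arrays of 0.937, 0.924 and 0.933, against 0.954 to 0.961 for the remaining 4. The mean of 3 Y-linked genes was 4.52 on KO replicate 4 and 4.42 on WT replicate 3 but 7.49 to 8.89 on the others, although the methods state that male mice were used. Rptor, the gene of Raptor, had signals of 5.99, 5.96, 4.40 and 8.54 on KO arrays and 5.98, 5.26 and 6.08 on WT arrays (difference 0.45 ± 0.86 SE, exact p = 0.83). Where its probes lie relative to the deleted exon was not given in the sources used here. The Rptor signal was also in the dim range on KO replicate 3 and WT replicates 2 and 3. There it lay below the 95th percentile of the olfactory and vomeronasal receptor genes (6.28, 5.99 and 6.23). This signal therefore does not check the deletion. By qRT-PCR the paper found hardly any Raptor mRNA in β-cells of older KO mice.

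Tsc1 encodes hamartin, the scaffold subunit that stabilizes TSC2. Its signal was 8.80, 8.99, 5.60 and 7.90 on KO replicates 1 to 4 and 9.93, 9.17 and 7.96 on WT replicates 1 to 3. WT replicates 1 and 2 were thus above every KO array, but WT replicate 3 fell within the KO range, and KO replicate 3 was far below all others. The means were 7.82 ± 1.56 in KO and 9.02 ± 0.99 in WT (SD, n = 4 and 3), a 2.29-fold lower KO mean (-1.20 ± 0.86 SE in log2, 95% interval -3.21 to 0.82, unadjusted limma p of 0.206, adjusted p = 1). Of the 35 ways to divide 7 arrays into 4 and 3, 11 gave a difference at least as large (exact two-sided p = 0.314, where the smallest possible is 0.0286). Tsc1 had the largest spread of the 8 genes, with an SD over the arrays above that of 96.7% of all transcript clusters. On KO replicate 3, however, its signal was in the dim range, below the 95th percentile of the olfactory and vomeronasal receptor genes on that array (6.28). When arrays of equal number were treated as a block, which takes KO replicate 4 out of the comparison, the difference was -1.22 and the unadjusted limma p 0.0458. Without KO replicate 3 alone it was -0.46.

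Tsc2 encodes tuberin, the subunit with the GTPase-activating domain. Its KO signals of 7.60, 7.51, 8.12 and 7.82 all fell between the lowest and the highest of the WT signals of 7.85, 7.0 and 9.13. The KO arrays were thus more alike than the WT arrays (SD 0.27 in KO and 1.07 in WT), and the means were 7.76 in KO and 7.99 in WT (difference -0.23 ± 0.47 SE, p = 0.646, exact p = 0.714). The sign of this difference rested on WT replicate 3, without which it was 0.34. Tbc1d7 encodes the subunit that helps to hold TSC1 and TSC2 together. Its signal was dim, at 4.44, 3.64, 4.56 and 4.41 on KO arrays and 4.74, 4.08 and 4.48 on WT arrays. This was near the median of the olfactory and vomeronasal receptor genes, 4.43, which serve as a measure of dim signal here because a β-cell is not known to express most of them. The difference for Tbc1d7 (-0.18 ± 0.30 SE, exact p = 0.657) was therefore measured at dim signal.

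Rheb is the GTPase on which the TSC complex acts. Its signal was bright, above that of 95.4% of all transcript clusters, and read 11.47, 13.45, 11.14 and 13.03 on KO arrays and 11.93, 12.72 and 11.20 on WT arrays. KO replicates 2 and 4 were above all WT arrays and KO replicate 3 below all of them. The means of 12.27 ± 1.14 in KO and 11.95 ± 0.76 in WT differed by 0.32 ± 0.65 SE (95% interval -1.19 to 1.83, p = 0.636, exact p = 0.686), and the difference was -0.057 without WT replicate 3 and -0.069 without KO replicate 2. Its paralog Rhebl1 was dim and overlapped between the groups, with a mean of 5.30 ± 0.87 in KO and 5.05 ± 0.52 in WT (exact p = 0.743).

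Sesn1, a sestrin that is a known target of p53 and FOXO factors, had the smallest p of the set. Its signal was 10.01, 10.60, 10.74 and 10.31 on KO arrays and 11.16, 10.46 and 11.60 on WT arrays. The 4 KO arrays lay below WT replicates 1 and 3, while WT replicate 2 was lower than KO replicates 2 and 3. The means were 10.41 ± 0.32 in KO and 11.07 ± 0.57 in WT, 1.58-fold lower in KO (-0.66 ± 0.33 SE in log2, 95% interval -1.42 to 0.10, p = 0.0793, adjusted p = 1, exact p = 0.143). Among all transcript clusters 4.34% had a smaller p. The unadjusted p was 0.0453 in the values as deposited, 0.0472 after median centring and 0.018 without WT replicate 2, where the groups did not overlap. It was 0.264 without WT replicate 3 (difference -0.40), 0.353 without that array and KO replicate 4 (-0.36), 0.282 without the 3 arrays that stood apart (-0.47) and 0.189 with trend and robust variances.

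The upstream promoter sequence of Sesn1 is shown because p53 is known to control this gene, and those of Ddit4 and Rheb because their signals moved most closely with the acinar score. Each is the 250 bases before the annotated start in the RefSeq promoter table (mouse GRCm38.p6), for Sesn1 the more 3′ of its pair of promoters. Capitals mark matches found by a search of both strands for ACGTG (the core of hypoxia elements), CACGTG (an E-box, which contains ACGTG and overlaps it), CCAAT (which reads ATTGG when it lies on the other strand) and the p53 half-site. Sesn1 lies at chr10:41887189-41887438 (+), Ddit4 at chr10:59951771-59952020 (-) and Rheb at chr5:24842362-24842611 (-).
Sesn1: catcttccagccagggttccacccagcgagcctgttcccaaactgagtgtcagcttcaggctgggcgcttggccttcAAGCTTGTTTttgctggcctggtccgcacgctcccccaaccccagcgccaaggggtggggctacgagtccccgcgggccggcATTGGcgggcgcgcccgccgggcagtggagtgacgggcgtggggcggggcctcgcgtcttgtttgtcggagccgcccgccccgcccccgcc
Ddit4: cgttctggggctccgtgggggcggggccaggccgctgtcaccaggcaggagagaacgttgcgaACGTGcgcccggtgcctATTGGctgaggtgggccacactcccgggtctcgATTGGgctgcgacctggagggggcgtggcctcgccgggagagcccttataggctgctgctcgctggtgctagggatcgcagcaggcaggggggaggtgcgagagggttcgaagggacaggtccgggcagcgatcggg
Rheb: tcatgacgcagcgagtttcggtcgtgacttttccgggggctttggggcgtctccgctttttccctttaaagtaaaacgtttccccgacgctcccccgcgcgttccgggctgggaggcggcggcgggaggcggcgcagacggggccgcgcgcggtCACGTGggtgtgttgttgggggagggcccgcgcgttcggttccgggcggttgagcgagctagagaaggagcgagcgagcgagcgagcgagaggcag
The p53 half-site begins at position -173 from the start that belongs to the Sesn1 promoter shown. The other Sesn1 promoter, at chr10:41810324-41810573 (+), held a CCAAT match but no p53 half-site. The half-site was found in 7.13% of the 32851 mouse promoters searched over the same length. ACGTG was found in 16.6% of them, and among the 8 genes in Rheb, Ddit4 and Tbc1d7, while CACGTG was found in 6.02% and in Rheb and Tbc1d7. CCAAT was found in 33.8%, and in all 3 sestrin genes and Ddit4. No promoter of the 8 genes held TGATGNAA (an ATF4 element, 3.45% of promoters), GTAAACA (a FOXO element, 3.17%) or TATAAA (12.4%). G and C made up 71.2% of the Sesn1 window, 70.0% of that of Ddit4 and 68.0% of that of Rheb, against a median of 52.4% over all. A match describes the letters and does not show that a factor binds.

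Sesn2 and Sesn3 also had lower KO means, with groups that overlapped. Sesn2, the sestrin known as a leucine sensor and as a target of ATF4, was dim, at 3.97, 3.60, 3.55 and 3.85 on KO arrays and 4.52, 3.66 and 3.82 on WT arrays. Only 9.64% of transcript clusters were dimmer, and the signal lay within the range of the receptor genes on every array, with a difference of -0.26 ± 0.27 SE (exact p = 0.429). Sesn3, which is induced by FOXO factors, was bright, at 10.52, 10.21, 10.39 and 8.29 on KO arrays and 11.22, 10.77 and 8.39 on WT arrays. The low arrays were KO replicate 4 and WT replicate 3, the same pair that was low in Y-linked signal, and the part of what sets these arrays apart in the signal of Sesn3 was not tested. The means were 9.85 ± 1.05 in KO and 10.13 ± 1.52 in WT (difference -0.27 ± 0.80 SE, exact p = 0.686). Without that pair of arrays the difference was -0.63 (unadjusted limma p of 0.0595) and the groups did not overlap, nor did those of Tsc1. Then 2 of 8 genes had groups without overlap, but so did 3485 of the 22198 transcript clusters.

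Ddit4 is induced by hypoxia, glucocorticoids and energy stress. Its signal was 7.11, 5.82, 7.91 and 4.49 on KO arrays and 7.07, 6.73 and 8.11 on WT arrays. KO replicates 2 and 4 were below all WT arrays, and KO replicates 1 and 3 fell among them. The means were 6.33 ± 1.5 in KO and 7.30 ± 0.72 in WT, 1.96-fold lower in KO (-0.97 ± 0.79 SE in log2, 95% interval -2.82 to 0.88, p = 0.259, exact p = 0.4). Ddit4 was in the dim range on KO replicates 2 and 4, below the receptor genes' 95th percentile there (5.89 and 6.22), and its signal on KO replicate 4 was that of the median receptor gene. Without KO replicate 4 and WT replicate 3 the difference was 0.045. Its paralog Ddit4l was dim and gave 5.16 ± 0.22 in KO and 5.05 ± 0.25 in WT (exact p = 0.543).

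**Figure D2:**
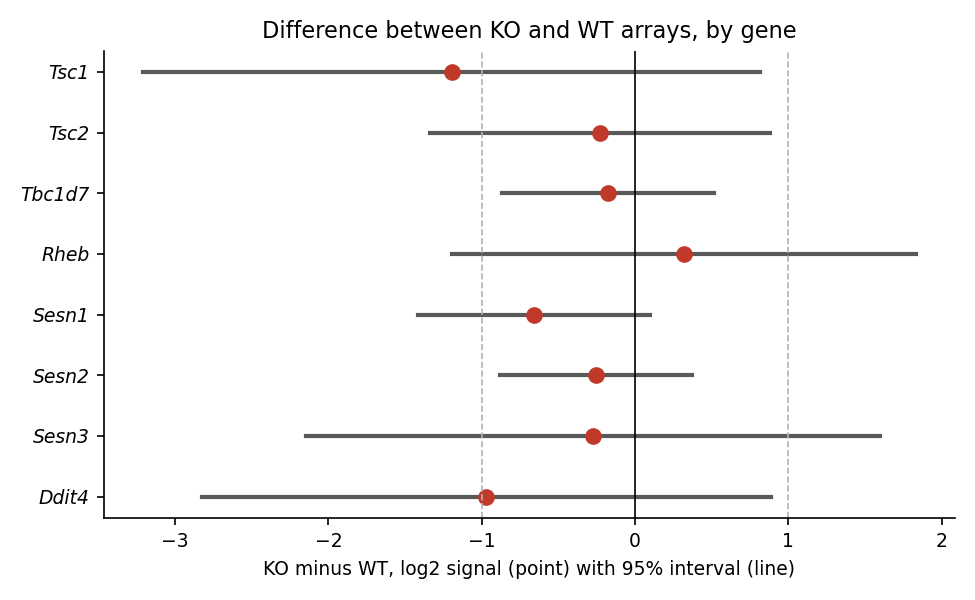
Difference between KO and WT in log2 signal for each of the 8 genes (point) with its 95% interval from limma (line); dashed lines mark a change of 1 log2 unit. All 8 intervals include 0, and 6 reach -1 or 1. The narrower intervals of Tbc1d7 and Sesn2 were measured at dim signal.

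Among the 8 genes, Ddit4 and Rheb moved most closely with the acinar score from array to array. Only the rank correlation of Ddit4 stayed below 0.05 after adjustment. These relations were not planned, and the adjustment covers only the 8 genes. How many of all transcript clusters moved as closely with the score was not examined. Ddit4 was highest, at 8.11, on WT replicate 3, the array with the lowest acinar score, and lowest, at 4.49, on KO replicate 4, the array with the highest. On KO replicates 2 and 4, with scores of 12.36 and 15.08, Ddit4 was in the dim range. KO replicate 4 and WT replicate 3 were also the pair low in Y-linked signal. Over the 7 arrays Pearson's r was -0.862 (exact permutation p = 0.0107, Benjamini-Hochberg 0.0746 over 8 relations) and Spearman's rho -0.964 (exact p = 0.00278, adjusted 0.0222). Rheb went the other way, with r = 0.866 (exact p = 0.0187, adjusted 0.0746) and rho = 0.857 (exact p = 0.0238, adjusted 0.0952). Without KO replicate 4 and WT replicate 3, the arrays farthest from the median score, r was -0.669 for Ddit4 and 0.830 for Rheb and both exact p for rho were 0.0833 over 5 arrays. The relations thus kept their sign but no longer passed 0.05. Tsc2 also went down with the score (r = -0.722, exact p = 0.054, and rho = -0.714, exact p = 0.0881). Without the same pair of arrays its r was -0.842 and its rho -0.9 (exact p = 0.0833), the same rho in size as for Ddit4 and Rheb. The exact p for the rho of Tsc2 was 0.048 in the values as deposited, 0.0302 after median centring, 0.167 after cyclic loess and 0.0167 without KO replicate 4. For the other 5 genes r lay between -0.519 and 0.310 over all arrays. Sesn1, however, had r = -0.872 and rho = -0.943 (exact permutation p for rho 0.0167) without KO replicate 1. Its rho was -0.314 (exact p = 0.564) without WT replicate 3. With the acinar score as a covariate the KO minus WT difference was -0.73 ± 0.41 SE for Ddit4 (unadjusted limma p of 0.124) and 0.13 ± 0.39 SE for Rheb (0.745). The acinar score overlapped between the groups, at 9.09 to 15.08 on KO arrays and 7.17 to 14.16 on WT arrays. The KO mean was higher for 23 of its 27 genes, of which 0 passed an unadjusted p of 0.05 by limma. Over all transcript clusters, 49.6% were lower in KO. Most of the 27 genes rose and fell together between arrays, so their count does not measure a difference between the groups. The part of acinar RNA in the KO minus WT differences was not tested beyond this covariate.

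**Figure D3:**
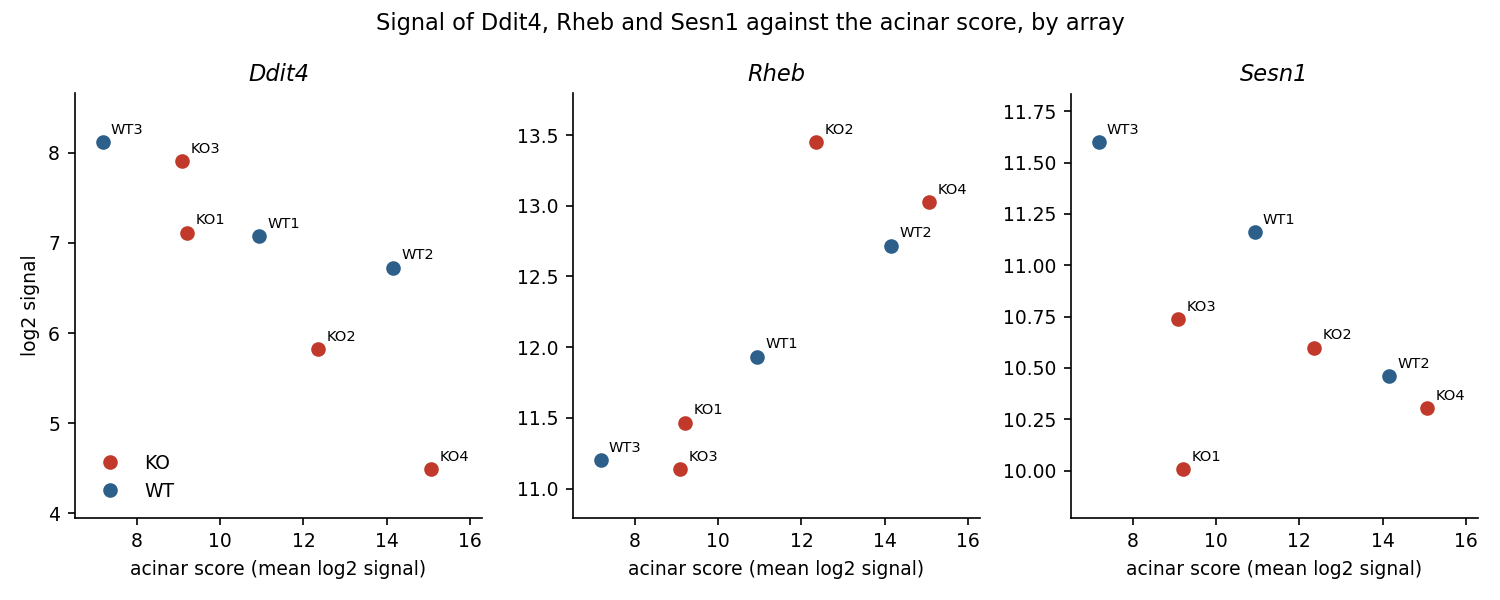
Log2 signal of Ddit4, Rheb and Sesn1 on each array against the acinar score, the mean log2 signal of 27 acinar genes. Red points are KO and blue points WT arrays. Ddit4 was lowest and Rheb high on KO replicate 4, which had the highest score of 15.08, and Ddit4 was highest on WT replicate 3, which had the lowest, 7.17.

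The genes with profiles most like those of Sesn1 and Tsc1 were sought over the 7 arrays among 19497 named genes, by the root mean square difference of the centred log2 values. The profile of Sesn1 was most like those of 1110025L11Rik (0.14 log2 units), Ampd1 (0.16), the AMP deaminase gene of muscle, and S100a5 (0.18), a calcium-binding protein gene. All 3 were dim, between 3.03 and 5.51 on the arrays, and their limma p were between 0.0962 and 0.189. The profile of Tsc1 was most like those of Hspd1 (0.35), a mitochondrial chaperonin gene, Mbnl1 (0.35), a splicing regulator gene, and St18 (0.36), a zinc-finger factor gene. These 3 were bright, between 10.26 and 15.43, and each was lowest on KO replicate 3, as was Tsc1. This array has the 1 value, 5.60, that sets Tsc1 apart, and it is among the 3 arrays that stood apart as a whole.

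Genes around the TSC complex passed the test about as often as transcripts at large. Over 9 lists with 109 measured genes, each counted once, 52 were higher and 57 lower in KO with a median difference of -0.02. An unadjusted p below 0.05 was reached by 2 of them (1.83%, against 2.18% of all transcript clusters) and 0 passed after adjustment. The groups did not overlap for 2 genes (1.83%, against 3.93%).

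The lists follow the arms of the pathway. Of the 3 genes of GATOR1, the complex that inhibits the Rag GTPases, 1 was higher and 2 were lower and 0 passed; Depdc5 averaged 6.33 ± 0.57 in KO and 6.81 ± 0.45 in WT (exact p = 0.371) and Nprl3 averaged 6.83 ± 0.43 in KO and 7.25 ± 1.75 in WT (exact p = 0.83). All 5 genes of GATOR2, which sestrins bind, had lower KO means, as did 49.6% of all transcript clusters. Their median difference was -0.21, and Wdr24, Wdr59 and Seh1l differed by -0.02, -0.10 and -0.21. An unadjusted p of 0.05 was passed by 1 of the 5. This was Sec13, also a component of COPII vesicle coats and the nuclear pore, with signals of 7.83, 7.56, 7.18 and 6.84 on KO arrays and 7.69, 8.16 and 9.23 on WT arrays (difference -1.0 ± 0.41 SE, unadjusted limma p of 0.0432, adjusted p = 1, exact p = 0.0857). The highest WT array, replicate 3, stood apart from the rest, and without it the difference was -0.57 and the unadjusted limma p 0.148, the methods' t-test on all arrays gave 0.0811, and the fit with the replicate block gave -0.83 and 0.135. Mios, another subunit of GATOR2, differed by -0.72 (exact p = 0.314). Among 8 measured genes of KICSTOR and the amino acid sensors 4 were higher and 4 lower and 0 passed. Castor2, of the family that senses arginine, averaged 8.51 ± 0.72 in KO and 9.25 ± 0.23 in WT (exact p = 0.2), and the KICSTOR subunit gene Kptn averaged 5.64 ± 0.90 in KO and 5.05 ± 0.82 in WT (exact p = 0.371).

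The list of kinases upstream of the TSC complex also holds genes of their subunits and partners. Of its 19 measured genes 8 were higher and 11 lower, and 1 passed an unadjusted p of 0.05. Akt2, which encodes a kinase that phosphorylates and inhibits TSC2, read 6.94, 7.26, 7.44 and 8.36 on KO arrays and 6.90, 6.45 and 5.48 on WT arrays. Every KO array was above every WT array, by a narrow margin between KO replicate 1 and WT replicate 1, and the KO mean was 2.34-fold higher (1.22 ± 0.45 SE in log2, unadjusted limma p of 0.0267, adjusted p = 1, exact p = 0.0571). The extremes were again KO replicate 4 and WT replicate 3, and without both the difference was 0.55 (unadjusted limma p of 0.107). The difference was 0.94 under the replicate block (0.0759), and p was 0.0593 by the methods' t-test and 0.0518 with array weights. Prkag2, a regulatory subunit gene of AMPK, averaged 9.33 ± 0.80 in KO and 10.38 ± 0.44 in WT (exact p = 0.143). Among 14 genes of TSC2 turnover and binding partners 5 were higher and 9 lower and 0 passed; Ywhah, a 14-3-3 gene, differed by -0.48 (exact p = 0.0857) and Txnip, a glucose-induced gene whose protein binds DDIT4, by -1.87 (exact p = 0.257). Txnip was 14.72, 12.97, 11.60 and 9.50 on KO arrays and 14.23, 12.88 and 15.10 on WT arrays, which puts KO replicates 1 and 2 among the WT values and KO replicates 3 and 4 below them.

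The upstream regulators and companion targets of the sestrins and Ddit4 were likewise divided. Of 18 measured regulators 10 were higher and 8 lower and 0 passed an unadjusted p of 0.05 by limma. Nr3c1, the glucocorticoid receptor gene, averaged 6.22 ± 0.41 in KO and 6.74 ± 0.21 in WT (exact p = 0.143), and Tfeb, a lysosomal transcription factor gene, averaged 7.60 ± 0.26 in KO and 7.97 ± 0.26 in WT (exact p = 0.171). Cebpb, a stress-responsive factor gene, had every KO array above every WT array, at 6.41, 6.49, 6.84 and 6.58 on KO arrays and 6.00, 6.37 and 6.39 on WT arrays. The difference was 0.32 ± 0.21 SE (unadjusted limma p of 0.17, exact p = 0.0571), and the gene was named here after its values were seen because it was the other of the 2 genes without overlap. Of 19 p53 targets 10 were higher and 9 lower, with Plk2 at 9.79 ± 0.49 in KO and 9.19 ± 0.10 in WT (exact p = 0.0857) and Ei24 at 10.60 ± 1.56 in KO and 11.91 ± 0.27 in WT (exact p = 0.171). Of 23 ATF4 targets 13 were higher and 10 lower, with Vldlr, a lipoprotein receptor gene, at 7.76 ± 0.51 in KO and 8.45 ± 0.48 in WT (exact p = 0.143) and Mthfd2, a mitochondrial folate enzyme gene, at 7.99 ± 1.07 in KO and 9.11 ± 1.21 in WT (exact p = 0.257). The difference for Vldlr passed an unadjusted 0.05 with the acinar score as a covariate, at -0.79 (unadjusted limma p of 0.0093), under the replicate block (-0.89, 0.0264), with array weights (-0.90, 0.0148) and without KO replicate 4 (-0.90, 0.0314), WT replicate 3 (-0.97, 0.0347), both (-1.18, 0.0077) or the 3 arrays that stood apart (-1.08, 0.0136). It did not pass in the other settings tried.

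**Figure D4:**
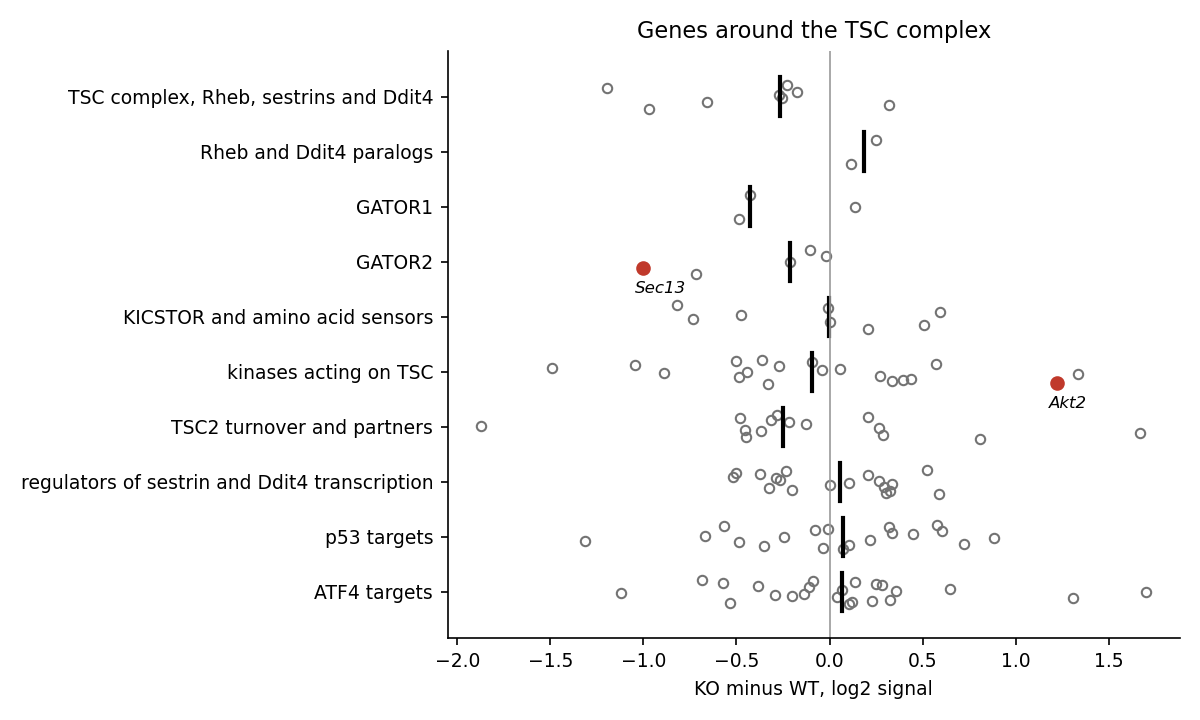
KO minus WT difference in log2 signal for the 8 genes (top) and for 9 lists of genes around them. Each circle is 1 gene, the vertical bar is the median of the list, and filled red circles have an unadjusted limma p below 0.05, which was reached by Sec13 and Akt2 and by 0 of the 8 genes.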

How the data were processed

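RNA of sorted β-cells from 2-week-old mice was hybridised to Affymetrix Clariom S arrays, 4 of KO and 3 of WT cells per the labels. The authors deposited 1 log2 value per transcript cluster and array. Affymetrix Expression Console and MAS5 stand in the submitters' processing notes and GeneSpring in the methods. Which of them gave the values, and the genome build of the array, were not given in the sources used here. The methods state that each array held RNA pooled from several animals, so the p-values measure the spread between pools. Detection calls were not used, and the number of arrays limits the precision. No column of the table was left out.

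The platform annotation gave 1 symbol to 19565 of 22198 transcript clusters and none to 2633. Array medians of 5.52 to 5.66 differed by more than 0.1, and the values were therefore quantile normalized. All 7 arrays entered a limma fit of KO against WT (version 3.58.1, R 4.3.3) without covariates, tested two-sided by eBayes, and p-values were adjusted by Benjamini-Hochberg across the transcript clusters. Exact two-sided permutation tests ran over the 35 divisions of the arrays (Python 3.11.15, SciPy 1.17.1). The fit was tested on simulated data. The genes named were the 8 members, both paralogs, the 2 genes with the smallest p of each list, and the 3 genes most like Sesn1 (smallest p) and Tsc1 (largest spread). The members and lists were chosen with earlier results of these data known, and Pam was removed from a list after its values were seen because its symbol had been mistaken for an older name of Mycbp2. Promoters and their coordinates are those of RefSeq GRCm38.p6, and no coordinates were taken for the array's probes.

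Titles of both groups carry the numbers 1 to 3. Deviations from the group means correlated at 0.16, 0.243 and 0.165 between arrays of equal number and at -0.181 to 0.0233 between arrays of unequal number. Each group was centred on its own mean of replicates 1 to 3. Positive values at equal numbers therefore force the other values down, and the contrast between them is partly fixed by construction. All 3 pairs passed the limit of 0.1 set for pairing, but what equal numbers share is not stated. The pairs were left out of the main fit and entered as a replicate block in an alternative. The others were deposited values without normalization, median centring, cyclic loess, filters on dim transcripts, eBayes with trend and robust variances, array weights, the acinar score as a covariate, the methods' t-test (Student, equal variance), and leaving out each array, the pair low in Y-linked signal or the 3 that stood apart. The relation to the acinar score under other settings was added after the data were seen.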

Additional observations from a re-analysis of the deposited data

Results flagged for a closer look

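Over the 45 groups of 4 KO values examined, 3 held an array far from the others by Dixon's ratio of the gap to the range, while chance gives about 1 in 20, or 2.25. Tbc1d7 was 3.64 on KO replicate 2 against 4.41 to 4.56 on the other KO arrays (ratio 0.84). All 4 values lay within the range of the receptor genes. Sesn3 was 8.29 on KO replicate 4 against 10.21 to 10.52 on the other KO arrays (ratio 0.859), and the KO mean without it was above the WT mean by 0.25. Kptn was 4.32 on KO replicate 3 against 5.94 to 6.27 on the other KO arrays (ratio 0.832), and the KO minus WT difference without it was 1.05 (unadjusted p = 0.0466). WT groups of 3 were not examined in this way.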

How the results depend on the processing

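Of 148 recomputed differences of the 8 genes, 130 kept their sign and their side of an unadjusted p of 0.05, 4 passed it and 14, in 6 genes, changed sign. Of 339 such values for the 18 other named pathway genes, 293 kept both, 18 passed 0.05, 20 no longer did and 8 changed sign. No setting gave an adjusted p below 0.05 for any transcript cluster. Sesn1 passed 0.05 in the values as deposited, after median centring and without WT replicate 2, and Tsc1 passed under the replicate block, so that 1 of 8 genes passed in each. The block gave -1.22 for Tsc1 (unadjusted limma p of 0.0458), turned Sesn3 to 0.25 and left 2 genes higher in KO. Overlap was counted there without KO replicate 4, which left 1750 transcript clusters whose groups did not overlap. The block itself does not change overlap. Array weights gave 0.039 for Tsc2 and 0.045 for Nprl3, and 2 genes higher. Without the pair low in Y-linked signal, Tsc2 was 0.33, Rheb -0.32, Ddit4 0.045, Ddit4l -0.056 and Nprl3 0.59, while 2 genes were higher and 2 did not overlap, as did 3485 of all. Without the 3 arrays that stood apart, Tsc2 was 0.18, Nprl3 0.30, Castor2 0.035 and Txnip 0.30, while 2 genes were higher and 2 did not overlap, as did 5810 of all. Leaving out arrays leaves fewer values to overlap. Filters at the 25th percentile and the median left 311 of 16648 and 177 of 11099 transcript clusters at unadjusted p below 0.05. The median filter left 380 of 11099 without overlap.

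Leaving out 1 array at a time gave 302 (without WT replicate 3) to 695 transcript clusters at unadjusted p below 0.05, 1594 to 2152 without overlap, 0 to 1 of the 8 genes past 0.05, 0 to 2 without overlap and 1 to 3 higher in KO. Differences ran between -0.72 and 0.34 for Tsc2, -0.35 and 0.032 for Tbc1d7, -0.069 and 0.70 for Rheb, -0.43 and 0.005 for Sesn2, -1.15 and 0.27 for Sesn3, -0.16 and 0.55 for Rhebl1 and -0.98 and 0.58 for Nprl3, all through 0, and did not change sign for Tsc1 (-1.73 to -0.46), Sesn1 (-0.97 to -0.40) and Ddit4 (-1.52 to -0.36). The rank correlation with the acinar score ran between -1 and -0.94 for Ddit4 and 0.77 and 0.94 for Rheb, whose exact p rose to 0.0583 or 0.103 without KO replicate 1, KO replicate 3, WT replicate 1 or WT replicate 3. The causes were not tested where none is given. Averaging the transcript clusters of a symbol changed nothing, since each gene had 1, and overlap is the same by construction under the t-test, array weights, trend and robust variances and the covariate.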
